A study of Mus musculus with 8 samples.

Results

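The interleukin 6 and oncostatin family was followed in the messenger RNA of mouse lung neutrophils. Its 8 members here were Il6, Osm, Lif and Il11, which encode secreted cytokines, and Il6ra, Osmr, Lifr and Il6st, which encode their receptors. They were chosen by gene symbol. All 8 had 1 row each among the 24625 rows of the deposited table, which held 19836 distinct symbols in all. The samples came from wild type (WT) mice, labelled as 6 to 12 weeks old, whereas the study's methods give a narrower range. Per those methods the colony was bred from female C57BL/6J mice bought in, and the sex of the mice sampled is not stated plainly. In the SP group, 4 samples were from mice whose left lung received a suspension of Streptococcus pneumoniae (SP), a major cause of bacterial pneumonia, at 2.3 µl per g of mouse. In the PBS group, 4 samples were from mice given an equal volume of phosphate-buffered saline (PBS) without bacteria. Cells were taken 24 h later in both groups, with magnetic beads against the neutrophil surface protein Ly6G. Each sample had its own Affymetrix Mouse Gene 1.1 ST array, and precision is limited by how few arrays there were. The study describes each sample as coming from a mouse, and p-values measure the spread between these samples.

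The IL-6 family is a group of cytokines that share gp130, the signal-transducing receptor chain encoded by Il6st. IL-6 binds its own receptor chain (Il6ra) before it engages a pair of gp130 chains, whereas leukemia inhibitory factor (Lif) joins gp130 to the LIF receptor (Lifr). Oncostatin M (Osm) joins gp130 to the oncostatin M receptor (Osmr) and, in some species, to Lifr. Joined chains activate JAK kinases and the transcription factor STAT3, and SOCS3 shuts the signal down. Neutrophils are known to carry the IL-6 receptor chain and to release it from the surface by the protease ADAM17, after which it can present IL-6 to cells that have gp130 alone. They are also known as a store of oncostatin M.

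Values are log2 expression values, so a difference of 1 is a 2-fold change. Array medians lay between 6.06 and 6.20 in PBS and between 5.78 and 5.91 in SP, and within a group the correlation between arrays was 0.970 or more. PBS replicate 2 and SP replicates 3 and 4 were the extreme samples of their groups for many of the genes below. Of 12 neutrophil markers, 11 could be matched to a row by symbol. Ly6g could not and was not analysed here, since some rows have no symbol. The study itself reports high Ly6g mRNA in all of its samples. Over the 11 matched markers, the mean per array was 12.25 to 12.50 in PBS and 11.68 to 12.84 in SP. Of these markers, 3 were called lower in SP, and the brightest were Lcn2 (means of 13.32 and 13.54) and Retnlg (13.36 and 12.88). Y-linked genes lay between 4.33 and 4.90 on all arrays (3 genes). They were used as a measure of background signal, which assumes cells from female mice. Their mean was itself 0.17 log2 units higher in SP, and 1 of the 3, Kdm5d, was called (adjusted p = 0.0497 by limma).

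Of the 8 members, 4 were called, meaning that limma gave an adjusted p no higher than 0.05, and 44.1% of all rows were called as well (21.5% higher and 22.6% lower in SP). That share is near the background and is not a result about the family. All 4 called members differed at least 2-fold, against 17.6% of all rows. Il6 and Lif were higher in SP (2 of 8, against 6.37% of all rows at 2-fold), and Lifr and Il6st were lower (2 of 8, against 11.3%). In these 4 genes the PBS and SP values did not overlap, and in the other 4 they did, while 49.0% of all rows showed no overlap. The median difference over the members was 0.12 log2 units, and over all rows 0.10.

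**Figure D1:**
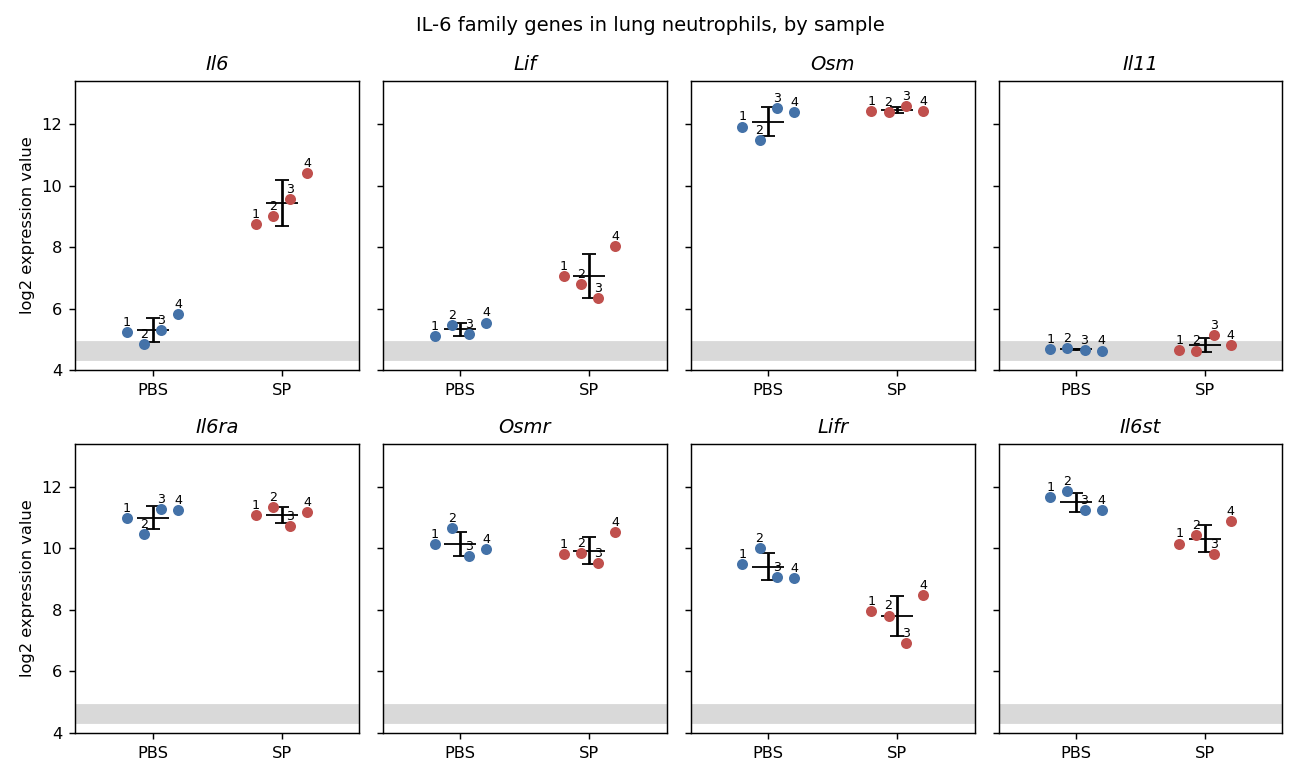
Log2 expression value (vertical axis) of each family member in the 4 PBS (blue) and 4 SP (red) samples, with the replicate number above each point, the mean and SD in black, and the range of the Y-linked genes as a grey band. Il6 and Lif lie higher and Lifr and Il6st lower in every SP sample than in any PBS sample, and Il11 stays at or near the band.

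Promoter sequence shows what stretches of DNA lie at the start of the ligand genes that rose. Windows of 250 bases before to 50 after a gene start, taken from RefSeq on GRCm38.p6, were found for 7 of the 8 members (9 windows). They were searched on both strands for the NF-κB motif (GGG and CC around a spacer of any bases, as long as in the sequences shown), TTNNGNAA (C/EBP), TTCNNNGAA (STAT) and TGANTCA (AP-1). Il6 and Lif are shown because both rose. Capitals mark the match, and each sequence is given 5′ to 3′ with its motif, place and strand.
Il6, NF-κB, chr5:30013060-30013089, plus strand: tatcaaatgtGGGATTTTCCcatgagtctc
Il6, C/EBP, chr5:30012975-30013004, plus strand: acgacgtcacaTTGTGCAAtcttaataagg
Lif, NF-κB, chr11:4257380-4257409, plus strand: atcaagtacaGGGACGCCCCctccccacac
Lif, AP-1, chr11:4257329-4257358, plus strand: ccagtcagctgTGACTCAggccatagtggc
The capitals of the first Il6 sequence span bases 44 to 35 before the gene start. A match on the opposite strand, shifted by 1 base, overlaps it. The capitals of the C/EBP match span bases 128 to 121 before the start. In Lif the NF-κB match covers bases 178 to 169 and the AP-1 match bases 228 to 222 before the start. The NF-κB pattern is common, at 50.8% of all 32851 windows and 8 of the 9 member windows. The C/EBP pattern was found in 40.7% of all windows and in 2 member windows, those of Il6 and Il6ra. The AP-1 pattern was found in 7.81% of all windows and in 4 member windows, of Il6, Lif, Il11 and Osmr. The STAT pattern was found in 8.30% of all windows and in none of the 9. These matches describe letters only.

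Among the ligands, Il6 (NM_031168), a cytokine of acute inflammation, moved most. Its values were 5.23, 4.86, 5.31 and 5.82 in PBS replicates 1 to 4, and 8.74, 9.003, 9.57 and 10.42 in SP replicates 1 to 4. The lowest SP sample was 2.92 log2 units above the highest PBS sample. The mean rose from 5.30 ± 0.40 to 9.43 ± 0.74 (SD, n = 4 each), a difference of 4.13 log2 units (SE 0.36, 95% interval 3.30 to 4.96, adjusted p = 6.68e-05 by limma). That is 17.5-fold. PBS values lay close to the level of the Y-linked genes, and PBS replicate 2 was within it, so the fold is not exact. Without any 1 sample the difference was between 3.80, without SP replicate 4, and 4.36, without SP replicate 1. Il6 alone among the members passed limma treat, which tests for a difference above 2-fold.

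Lif (NM_001039537), named for its effect on leukemia cells and a ligand of Lifr with gp130, also rose. PBS values were 5.12, 5.47, 5.18 and 5.55, and SP values were 7.06, 6.81, 6.36 and 8.04. All SP samples lay above all PBS samples, by 0.81 log2 units at the closest, and SP replicate 4 was highest, as it was for Il6. The difference was 1.74 log2 units (SE 0.32, 95% interval 1.002 to 2.47), or 3.33-fold, with an adjusted p of 0.00299 by limma. Spread in SP was wider than in PBS, with SDs of 0.71 and 0.21 (n = 4 each). Leaving out SP replicate 4 gave the smallest difference, 1.41.

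Osm (NM_001013365), which encodes oncostatin M, was bright in both groups. PBS values were 11.92, 11.48, 12.51 and 12.40, and SP values were 12.41, 12.38, 12.59 and 12.41. The groups overlapped, since PBS replicates 3 and 4 were at the SP level while PBS replicates 1 and 2 were below it. SP samples spanned 0.21 log2 units and PBS samples 1.03. The difference of 0.37 was not called (95% interval -0.11 to 0.86, adjusted p = 0.173 by limma), and the interval does not reach a 2-fold change. With the arrays centred on their medians it was 0.65 and was called (adjusted p = 0.0298 by limma). After another quantile normalization it was 0.16 and was not called (adjusted p = 0.460 by limma).

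Il11 (NM_001290423), a cytokine of stromal and epithelial cells, stayed at the level of the Y-linked genes. It read 4.67, 4.72, 4.67 and 4.64 in PBS, and 4.66, 4.64, 5.14 and 4.83 in SP. Only SP replicate 3 lay above the Y-linked range. The difference was 0.14 log2 units (95% interval -0.12 to 0.41, adjusted p = 0.321 by limma). It was 0.42 and called with centred arrays (adjusted p = 0.0191 by limma). After another quantile normalization it was -0.0062 and was not called (adjusted p = 0.967 by limma). The Y-linked genes differed by as much, 0.17 on the same scale as the 0.14, and centring adds 0.28 to them as to Il11.

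Receptor genes were compared next, beginning with Il6st (NM_010560), the gp130 chain that every ligand above needs. PBS values were 11.66, 11.86, 11.25 and 11.23, and SP values were 10.15, 10.44, 9.80 and 10.87. Every SP sample was lower than every PBS sample, by 0.36 log2 units at the closest pair. The mean fell from 11.50 ± 0.31 to 10.32 ± 0.45 (SD, n = 4 each), a difference of -1.18 (SE 0.24, 95% interval -1.73 to -0.63), or 2.27-fold lower, with an adjusted p of 0.00490 by limma. The call was kept without any 1 sample (-1.37 to -1.01). With centred arrays the difference was -0.90, which is called but is less than 2-fold.

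Lifr (NM_001113386), the partner of gp130 for LIF, fell further. Its values were 9.49, 9.999, 9.08 and 9.05 in PBS, and 7.97, 7.81, 6.91 and 8.48 in SP. The groups were 0.57 log2 units apart, with SP replicate 3 lowest and SP replicate 4 highest of the SP samples, the same samples as for Il6st. The difference was -1.61 (SE 0.34, 95% interval -2.39 to -0.83), or 3.06-fold lower (adjusted p = 0.00579 by limma). It ranged from -1.84 without SP replicate 4 to -1.32 without SP replicate 3.

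Osmr (NM_011019), the oncostatin M chain, overlapped between groups. PBS values were 10.13, 10.66, 9.75 and 9.98, and SP values were 9.83, 9.85, 9.51 and 10.52. PBS replicate 2 and SP replicate 4 were the high samples, and the other SP samples lay at 9.85 or below. The difference of -0.20 log2 units was not called (95% interval -0.78 to 0.37, adjusted p = 0.504 by limma) and turned to 0.077 with centred arrays.

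Il6ra (NM_010559), the chain that binds IL-6, was at 10.99, 10.46, 11.27 and 11.25 in PBS, and at 11.09, 11.33, 10.74 and 11.18 in SP. All SP values lay within the PBS range except SP replicate 2, which was slightly above it. The difference was 0.093 (95% interval -0.37 to 0.56, adjusted p = 0.705 by limma), so a change as large as 2-fold in either direction lies outside the interval. The sign turned without PBS replicate 2 (-0.085) and when arrays were quantile normalized again (-0.098). A p above the threshold does not show that Il6ra, Osmr, Osm or Il11 were equal in the groups.

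**Figure D2:**
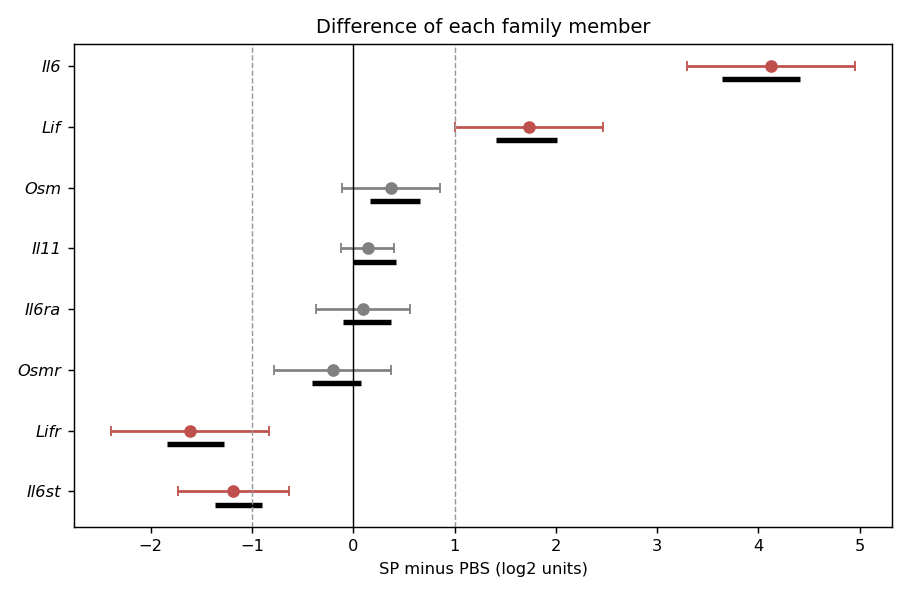
Difference between SP and PBS in log2 units (horizontal axis) for each family member, with the 95% interval from limma (points and thin bars, red where called at an adjusted p of 0.05) and the range over all alternatives (thick black bars). Dashed lines mark a 2-fold change. The bars of Il6 and Lif lie above 0 and those of Lifr and Il6st below it, while the 95% intervals of the other 4 genes cross 0.

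Within a group, several members shared their highest or lowest array. In PBS, replicate 2 was the highest array for Il6st, Lifr, Osmr and Il11 and the lowest for Il6, Osm and Il6ra. In SP, replicate 4 was the highest for Il6st, Lifr, Osmr, Il6 and Lif, and replicate 3 the lowest for Il6st, Lifr, Osmr, Lif and Il6ra. Markers of other lung cells were read on the same arrays. The mean of 11 endothelial markers ranked the arrays in the same order as Il6st in both groups. In SP, the fibroblast, mesothelial, smooth muscle, club cell and alveolar macrophage lists below had that order as well. Lifr had the endothelial order in PBS but not in SP. The endothelial mean was 10.89, 11.19, 10.34 and 10.25 in PBS and 9.48, 9.69, 8.70 and 9.91 in SP. Of the 11 genes, 8 were called, all lower in SP. Its brightest genes were Calcrl, at 12.30 ± 0.43 in PBS and 10.66 ± 0.49 in SP, and Cdh5, at 11.91 ± 0.41 and 10.92 ± 0.23 (SD, n = 4 each).

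Other lists behaved in part alike. Means per array of 6 alveolar type 1 markers were 9.90 to 10.80 in PBS and 8.47 to 9.51 in SP, with 4 genes called lower. Those of 4 mesothelial markers were 10.37 to 10.90 and 5.68 to 7.87, with all 4 lower. For 10 fibroblast markers they were 8.20 to 8.99 and 7.30 to 9.09, with 3 lower, and for 5 smooth muscle markers 7.44 to 8.30 and 6.71 to 8.25, with none called. For 9 alveolar type 2 markers they were 11.84 to 12.41 and 9.83 to 11.35 (8 lower), for 5 club cell markers 11.93 to 12.61 and 9.13 to 10.27 (5 lower), and for 7 ciliated cell markers 9.16 to 9.97 and 6.44 to 7.22 (7 lower). Alveolar macrophage markers read 9.02 to 9.64 and 8.01 to 8.72 (6 of 10 lower, 2 higher), and B cell markers 7.71 to 8.63 and 5.83 to 6.97 (6 of 6 lower). Monocyte and macrophage markers (8.10 to 8.99 and 8.41 to 9.72, 5 of 10 higher) and T cell markers (5.35 to 5.98 and 5.61 to 6.76, 2 of 7 higher) were the lists with a median above 0. SP replicate 3 was lowest of the SP arrays in 11 of these 12 lists and SP replicate 4 highest in 9. In SP, though not in PBS, Lif and Lifr ranked the arrays as the alveolar type 1, alveolar type 2 and monocyte and macrophage lists did. The part of these other cells in the values of Il6, Lif, Il6st, Lifr, Osmr or any other member was not tested. In a bulk sample, fewer cells of a type and less RNA per cell cannot be told apart. Purity was examined by the study in pneumonia samples only. There, on stained cell preparations, it found few other cells, which usually looked like alveolar macrophages.

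**Figure D3:**
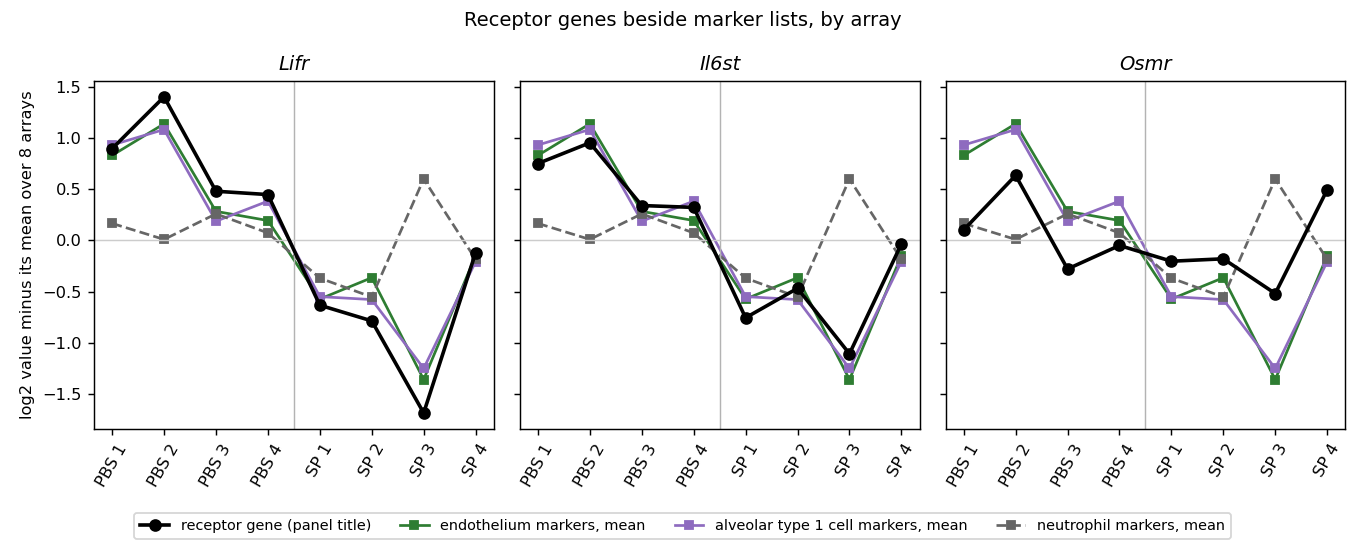
Log2 value minus its mean over the 8 arrays (vertical axis) for Lifr, Il6st and Osmr (black), beside the mean of endothelial (green), alveolar type 1 (violet) and neutrophil (dashed grey) markers on each array; lines only join points of 1 measure, and these lists were picked for the plot after their values were seen. Lifr and Il6st lie with the endothelial and alveolar type 1 means on most arrays, and Osmr lies closer to 0.

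For each member, the genes with the nearest profile were listed. Likeness was the root mean square difference of row-centred log2 values over the 8 arrays, taken against the other 19835 symbols. For Il6 these were Inhba (0.49), Il4i1b (0.52) and Timp1 (0.52), where Il6 itself varied by 2.13 around its mean. Inhba, which encodes a subunit of activin A, differed by 4.11 between SP and PBS, and Timp1, an inhibitor of matrix proteases, by 3.74. For Lif they were U90926 (0.26), Gm13889 (0.27) and Slc26a4 (0.29), with differences of 1.41, 1.80 and 2.13 log2 units. No family member was as near, the nearest to Il6 being Lif at 1.28 and the nearest to Lif being Osm at 0.89.

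The receptor genes that fell had closer neighbours, but the measure is not scaled to a gene's own spread. That spread was 0.98 for Lif, 0.94 for Lifr and 0.68 for Il6st. It was 0.37 for Osmr, 0.35 for Osm, 0.28 for Il6ra and 0.16 for Il11. Distances of different members are therefore not directly comparable. Lifr was nearest to Nfib (0.082), Tspan8 (0.089) and Pde7a (0.10), which were lower in SP by -1.63, -1.59 and -1.57 log2 units. Il6st was nearest to Shroom3 (0.064), Mical3 (0.065) and Ephb4 (0.077), at -1.20, -1.27 and -1.17. Lifr and Il6st were each other's nearest member, at 0.30. Among the members that were not called, Osm was nearest to Stk40 (0.061), Cotl1 (0.068) and Cmtr1 (0.069). Il6ra was close to Ppm1d (0.064) and Twf2 (0.083), and Osmr to Plxna2 (0.066), BC024978 (0.11) and Chst14 (0.13). Il11, at background, was nearest to Hsd17b6, Tuba3a and Olfr132 (0.029 to 0.038).

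Other genes of the pathway were grouped into 7 lists by role, with 85 genes. A row could be matched by symbol for 81. The other 4, which were Cntf, Clcf1, Il11ra1 and Il11ra2, were not analysed here. The study lists Clcf1 among the genes that it found higher in pneumonia. Of the 81, 46 were called, 36 higher and 10 lower, and 21 and 3 of them at least 2-fold. Over all rows, 44.1% were called, 21.5% higher and 22.6% lower, and 6.37% and 11.3% at 2-fold, and the counts of each list below are to be read against these shares. The median difference was 0.35 log2 units, against 0.10 over all rows.

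Of the other ligand genes, 5 of 6 were called, 3 higher and 2 lower (median 0.31). Il27 and Ebi3, which encode both chains of IL-27, rose together. Il27 read 6.47, 5.88, 6.86 and 6.87 in PBS and 8.47, 8.56, 9.01 and 8.31 in SP, which was 4.196-fold higher (adjusted p = 0.000280 by limma). Ebi3 rose 3.43-fold, from 9.92 ± 0.91 to 11.69 ± 0.05 (SD, n = 4 each, adjusted p = 0.00722 by limma). Both had their lowest value in PBS replicate 2, and PBS and SP did not overlap. Ctf1 (cardiotrophin 1) was 1.68-fold lower, from a dim PBS mean of 5.90. With dim rows left out only 2 ligand genes of this list were called. Of the other receptor genes, none of 3 was called by limma or by the methods' own test, nor at an unadjusted p of 0.05. Centring the arrays, or leaving out SP replicate 4, called 1. Cntfr, Il27ra and Il31ra, named because so few were matched, differed by -0.095, 0.057 and 0.14 log2 units. The mean difference of Cntfr depends on SP replicate 4. It read 5.43 to 5.61 in PBS, and 4.99, 5.07, 5.17 and 6.42 in SP replicates 1 to 4. All SP samples but replicate 4 lay below every PBS sample.

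Kinases, STATs and adaptors followed, with 9 of 16 called, 7 higher and 2 lower (median 0.29), beside 44.1% of all rows. Jak2, a kinase bound to gp130 and other receptors, rose 3.34-fold, from 10.30 ± 0.27 to 12.04 ± 0.15 (SD, n = 4 each, adjusted p = 5.25e-05 by limma). Gab1, a docking protein, was 2.16-fold lower, and Mapk3, the kinase ERK1, 1.80-fold lower. Stat3 and Jak1, the main mediators below gp130, were named for that role after their values were seen. Stat3 was at 11.95, 11.78, 12.28 and 12.16 in PBS and at 12.19, 12.23, 12.17 and 12.19 in SP. The Stat3 difference of 0.15 log2 units was not called (95% interval -0.10 to 0.41, adjusted p = 0.266 by limma), and neither was that of Jak1 (0.29, adjusted p = 0.187). Both were called with centred arrays (0.44 and 0.57, adjusted p = 0.0198 and 0.0232), and the sign of Stat3 turned after another quantile normalization (-0.091).

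Inhibitors of gp130 signalling were called in 8 of 13 cases, 7 higher and 1 lower (median 0.82). Socs1, a feedback inhibitor of JAK kinases, was at 6.34, 5.51, 6.44 and 6.41 in PBS and at 10.88, 11.17, 10.77 and 10.57 in SP. The groups lay 4.13 log2 units apart, and the rise was 25.5-fold (SE 0.23 log2 units, adjusted p = 4.79e-06 by limma). Cish, another SOCS protein, rose 5.52-fold and Pias4, a SUMO ligase, 2.92-fold. Socs3, the inhibitor that binds gp130 itself, was named for that role after its values were seen. It read 10.77, 10.33, 11.42 and 11.34 in PBS and 12.11, 12.12, 12.46 and 12.13 in SP, a 2.36-fold rise without overlap (adjusted p = 0.00358 by limma). Socs2 was 1.95-fold lower, and without PBS replicate 1 it just missed the threshold (-0.95, adjusted p = 0.0503).

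Of the genes for shedding of the IL-6 receptor, 3 of 4 were called. Adam17, the protease itself, rose 3.06-fold, from 9.90 ± 0.17 to 11.51 ± 0.16 (SD, n = 4 each, adjusted p = 2.52e-05 by limma). Rhbdf2 (iRhom2), which carries ADAM17 to the surface in immune cells, rose 2.75-fold, whereas its relative Rhbdf1 was 2.66-fold lower. The fourth gene, Adam10, differed by 0.013 and was not called.

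Genes known as targets of STAT3 went both ways, with 13 of 25 called, 10 higher and 3 lower (median 0.52), again beside 44.1% of all rows. Saa3, an acute phase protein, rose from 6.64 ± 0.29 to 12.72 ± 0.25, Il10, an anti-inflammatory cytokine, from 5.26 ± 0.33 to 9.80 ± 1.73, and Batf, a transcription factor, from 6.76 ± 0.62 to 10.78 ± 0.27 (SD, n = 4 each). The difference of Il10 was 4.53 log2 units, and 3.74 without SP replicate 3. Ccnd1 (cyclin D1) was 2.34-fold lower and Lrg1, a secreted glycoprotein of granulocytes, 1.76-fold lower. The Lrg1 call was lost with centred arrays (-0.53, adjusted p = 0.0558). Many genes of this list also answer to other factors, so the list does not measure STAT3 activity.

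Last were regulators of Il6 transcription and of its mRNA decay, with 11 of 19 called, 9 higher and 2 lower (median 0.51), where all rows had 44.1%. Zc3h12c, a relative of Regnase-1, rose 9.29-fold, from 7.79 ± 0.21 to 11.004 ± 0.21 (SD, n = 4 each, adjusted p = 3.64e-06 by limma). Zc3h12a, which encodes Regnase-1, a nuclease that cuts Il6 mRNA, rose 6.56-fold. Its values were 8.41, 7.91, 9.40 and 9.48 in PBS and 11.56, 11.45, 11.71 and 11.33 in SP. Tnfaip3 (A20), a brake on NF-κB, rose 6.24-fold, and its difference of 2.64 log2 units was 2.03 without PBS replicate 2, the lowest PBS sample. Auh, an RNA-binding protein, and Fos, a subunit of AP-1, were lower by 1.88- and 1.55-fold with overlapping groups. The Auh call was lost after another quantile normalization (adjusted p = 0.116) and the Fos call with the replicate block (adjusted p = 0.0587). Both calls were lost under the methods' own test (adjusted p = 0.0527 and 0.0749), with centred arrays (-0.63 and -0.35 log2 units, adjusted p = 0.0660 and 0.161) and without several single samples (PBS replicates 3 and 4 and SP replicates 1 and 2 for both, and PBS replicate 1 and SP replicate 3 for Fos, with differences of -0.89 to -0.78 for Auh and -0.68 to -0.52 for Fos).

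**Figure D4:**
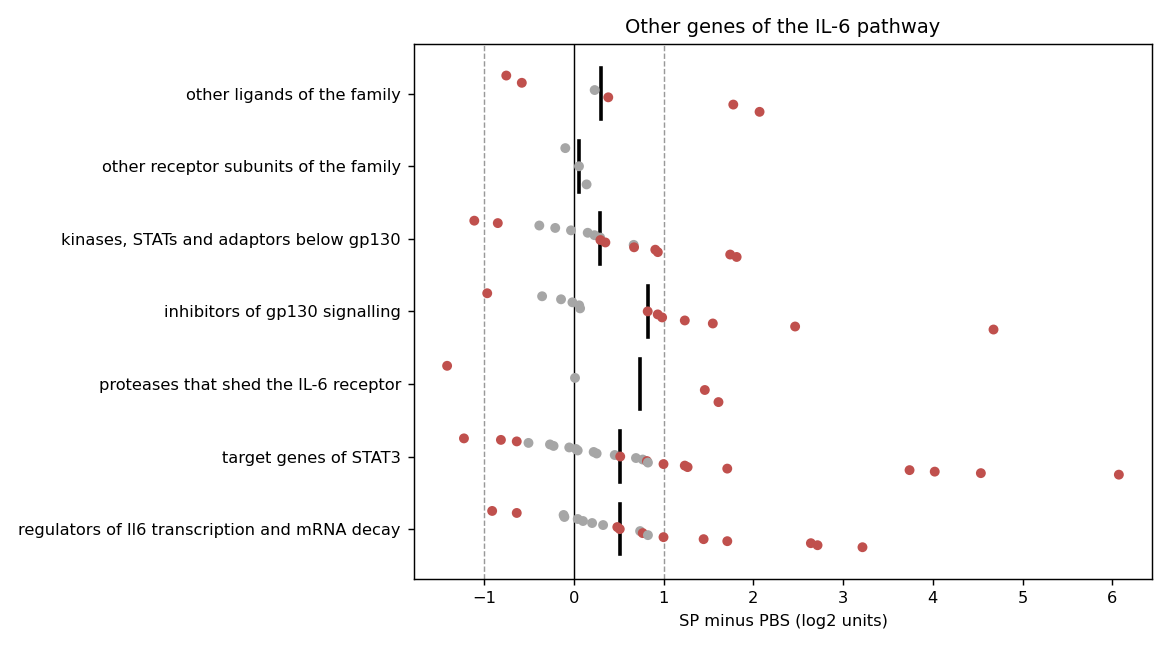
Difference between SP and PBS in log2 units (horizontal axis) for each gene of the 7 pathway lists that was matched to a row. Points are red where called at an adjusted p of 0.05 by limma and grey otherwise. The black bar is the list median, and dashed lines mark a 2-fold change. Inhibitors have the highest median (0.82) and the other receptor subunits the lowest (0.057), and each list with calls holds genes on both sides of 0.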

How the data were processed

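Per the labels, lung neutrophils were profiled on Affymetrix arrays, processed with Affymetrix Expression Console, RMA and Partek. Per the study's methods the authors corrected for background, GC content and probe sequence, quantile normalized the arrays and summarised probes by median polish. The deposited values are on a log2 scale, and this scaling hides any change in total RNA per cell. No genome build is attached to the values. Rows were named by unversioned accession through RefSeq (GRCm38.p6), which gave a symbol to 19915 of 24625 rows (80.9%), and the brightest row stood for a symbol. Groups and replicate numbers follow the sample titles.

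SP was compared with PBS by limma 3.58.1 (R 4.3.3, lmFit and eBayes, no covariates, two-sided, Benjamini-Hochberg over all 24625 rows). A gene was called at an adjusted p of at most 0.05. The methods' own test, one-way ANOVA, was an alternative, beside an intensity trend with a robust prior, a replicate block, array weights, other scalings, row filters, limma treat and leaving out each sample. The fit was first tested on simulated data. Motifs and figures used Python 3.11.15.

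All 8 members were described. Of each pathway list, the 3 largest called differences and up to 2 called the other way were named, and of each member the 3 nearest profiles, plus the 2 brightest genes of a marker list set beside a result. Stat3, Jak1, Socs3, Adam10 and the other receptor genes were added after their values were seen. Some genes that this rule names are not reported here. Members and lists were chosen with earlier results of these data known.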

Additional observations from a re-analysis of the deposited data

Results flagged for a closer look

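Outlying samples were looked for in 48 genes, each in PBS and SP: the 8 members and 40 named pathway and neighbour genes. Other genes named here, such as Cntfr, were not looked at. In 7 of these 96 groups of 4 samples, 1 sample lay far from the other 3. Its gap to its neighbour was past Dixon's 95% critical value. Chance gives about 1 such group in 20. In SP replicate 3, Osm was 12.59, Socs3 12.46 and Tnfaip3 13.17, each above the other SP samples, and Inhba was 10.78, below them. In SP replicate 4, Gm13889 was highest at 8.90. In PBS, Socs1 was lowest in replicate 2 at 5.51, and Ctf1 was lowest in replicate 3 at 5.58. Calls of these genes did not change without any 1 sample.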

How the results depend on the processing

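The calls of Il6, Lif, Lifr and Il6st were kept under all 17 alternatives except limma treat, which asks for differences above 2-fold. Treat kept 1 member, Il6, of 4, and 1572 rows in place of 4341 at 2-fold or 10860 in all. Lif (1.74), Lifr (-1.61) and Il6st (-1.18) were not called by it, with adjusted p of 0.267, 0.505 and 1. Centring the arrays on their medians added 0.28 log2 units to every difference. It called 18255 rows and 6 members, adding Osm (0.65) and Il11 (0.42), turned Osmr to 0.077 and left 3 members at 2-fold. At 2-fold, 36.1% of called rows were higher in SP, 55.6% with centred arrays and 46.1% after another quantile normalization. The latter turned Il11 to -0.0062, Il6ra to -0.098 and Stat3 to -0.091. Without any 1 sample, differences ranged from -0.085 to 0.21 for Il6ra and the members called stayed at 4. The pathway lists and the named pathway and neighbour genes were followed under the alternatives other than limma treat. Of 112 list counts under these, 109 stayed within 1.5 times. The called or uncalled state of 34 of the 40 named genes held under all of these, again without limma treat.

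Samples that share a replicate number did not deviate together (correlations across rows of 0.016, 0.030, 0.35 and -0.27), so the numbers were not taken to pair them. With the replicate block, 9842 rows and 4 members were called, and no member changed its call, while of the named genes Fos lost its call (adjusted p = 0.0587). Genes near background, Il11 and Il6 and Lif in PBS, have the least certain levels.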
